A study of Mus musculus with 10 samples.

Results

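The genes of core binding factor, of its ETO-family partners and of the myosin fused to it in inv(16) leukemia were followed in sorted mouse stem and progenitor cells. The genes were Cbfb, Runx1, Runx2, Runx3, Runx1t1, Cbfa2t2, Cbfa2t3 and Myh11, taken by name from the gene table. All 8 were found among the 25078 genes listed, and all 8 were among the 18747 genes with a count in at least 1 library, which were tested.

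RNA was sequenced from Lin-Sca-1+c-Kit+ cells (LSK cells, the bone marrow fraction that holds hematopoietic stem and multipotent progenitor cells) of CM mice and CM/miR-126Δ/Δ mice (5 of each genotype), 1 library per mouse. CM mice carry the conditional knock-in allele Cbfb56M, which expresses the Cbfb-MYH11 fusion (CM), over a wild-type Cbfb allele, together with Mx1-Cre. CM/miR-126Δ/Δ mice carry the same fusion allele and Mx1-Cre and in addition floxed alleles of miR-126 on both chromosomes. Mice of both sexes on a C57BL/6 background were given poly(I:C) from 6 to 8 weeks of age and were studied 6 weeks after induction, before leukemia. Both genotypes therefore carried the fusion allele, Mx1-Cre and the poly(I:C) treatment, and mice without the fusion were not analysed here. Mx1-Cre is driven by an interferon-inducible promoter and acts in blood cells and in other tissues that respond to interferon. The comparison asked whether loss of miR-126 in fusion-bearing LSK cells came with another level of the fusion's parent genes and their partners.

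Core binding factor is a heterodimer. A RUNX protein (Runx1, Runx2 or Runx3) binds DNA through its Runt domain, and the beta subunit encoded by Cbfb does not touch DNA itself but strengthens RUNX binding and protects RUNX proteins from degradation. Runx1 with Cbfb is required for definitive blood formation in the embryo. In inv(16) acute myeloid leukemia, most of CBFB is joined to the rod-like tail of the smooth muscle myosin MYH11, and in t(8;21) leukemia RUNX1 is joined to RUNX1T1 (ETO), a corepressor of the same family as Cbfa2t2 (Mtgr1) and Cbfa2t3 (Eto2).

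The deleted RNA and the site to which RUNX proteins bind are shown first. The mature strand of miR-126a (chr2:26591402-26591423, plus strand, RefSeq, GRCm38) is printed with its seed, bases 2 to 8, in capitals.
mmu-miR-126a-3p: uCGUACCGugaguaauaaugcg
The 7-base site complementary to this seed, CGGTACG, and its 6-base core GGTACG were looked for in the annotated 3′ UTRs of the 8 genes. Neither was found in any annotated transcript of the 8 genes, whose longest 3′ UTRs ran from 666 bases in Myh11 to 4188 bases in Runx1. The 6-base core was present in 2.95% of 19915 mouse genes with an annotated 3′ UTR and the 7-base site in 0.211%, so that absence is what most genes show.

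The letters AACCACA are the RUNX recognition sequence. In RefSeq promoter windows of 300 bases (250 before and 50 after each start, GRCm38.p6), they were present on either strand in 5.27% of 32851 windows and at least 2 times in 0.204%. The 8 genes had 9 windows, from all but Myh11 and Runx1t1. The motif stood in 3 of the 9, 1 each of Runx1, Runx2 and Runx3, and in no window of Cbfb, Cbfa2t2 or Cbfa2t3. These 3 windows shared a run of 18 bases holding 2 adjacent copies of the motif. The run was found in 4 windows in all, the fourth being that of Gm16225, which overlaps the Runx3 window. A stretch of 100 bases is given for each RUNX gene, 5′ to 3′ in the direction of transcription, with the motif in capitals.
Runx1, chr16:92826025-92826124, minus strand: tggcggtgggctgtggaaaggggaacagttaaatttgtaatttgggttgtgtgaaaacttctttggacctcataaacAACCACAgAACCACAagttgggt
Runx2, chr17:44814578-44814677, minus strand: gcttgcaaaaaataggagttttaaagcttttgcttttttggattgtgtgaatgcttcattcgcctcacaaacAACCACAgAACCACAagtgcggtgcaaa
Runx3, chr4:135120469-135120568, plus strand: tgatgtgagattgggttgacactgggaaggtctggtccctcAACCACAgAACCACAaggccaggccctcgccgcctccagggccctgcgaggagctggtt
Positions were counted with the RefSeq start, which has 250 bases of the window before it, as 1. The run lay at positions 27 to 44 in Runx1 and 22 to 39 in Runx2, and upstream in Runx3, from -136 to -119. The RefSeq starts used for Runx1 and Runx3 are the starts of these genes in the count table. That of Runx2 lies 170 bases inside the span given there. A match is a description of these letters, and binding was not measured.

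Library totals ran from 23649233 to 33202086 counts, so that 3 counts corresponded to 0.0908 to 0.131 CPM (the usual count per library size, here with TMM factors, which adjust for differences in library composition). The miR-126 precursor gene Mir126a had 0 to 5 counts in CM mice and 0 counts in every CM/miR-126Δ/Δ mouse. LSK markers were present in both genotypes. The receptor gene Kit stood at 859 CPM in CM against 929 CPM in CM/miR-126Δ/Δ mice, and Cd34 at 943 and 874 CPM. The summed level of 14 markers of mature lineages, 13 of them in the table and 12 detected, was 87.7 to 176 CPM in CM and 76.2 to 170 CPM in CM/miR-126Δ/Δ mice.

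None of the 8 genes passed the test for a difference between the genotypes. By edgeR's quasi-likelihood test 0 of 8 had an adjusted p below 0.05, where 2 of all 18747 genes did (0.0107%). At an unadjusted p below 0.05 the count was also 0 of 8, with edgeR and with DESeq2, where 6.61% of all genes passed with edgeR. The CPM of the genotypes overlapped for each of the 8, whereas 1.1% of all genes did not overlap. The fitted values were above 0 for 4 genes and below 0 for 4, with a median log2 fold change (CM/miR-126Δ/Δ against CM) of -0.00069, beside -0.01 over all genes tested. The lowest adjusted p among the 8 was 0.765 by edgeR's quasi-likelihood test, for Runx3. In such bulk samples, fewer cells of a type and less RNA per cell cannot be told apart.

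**Figure D1:**
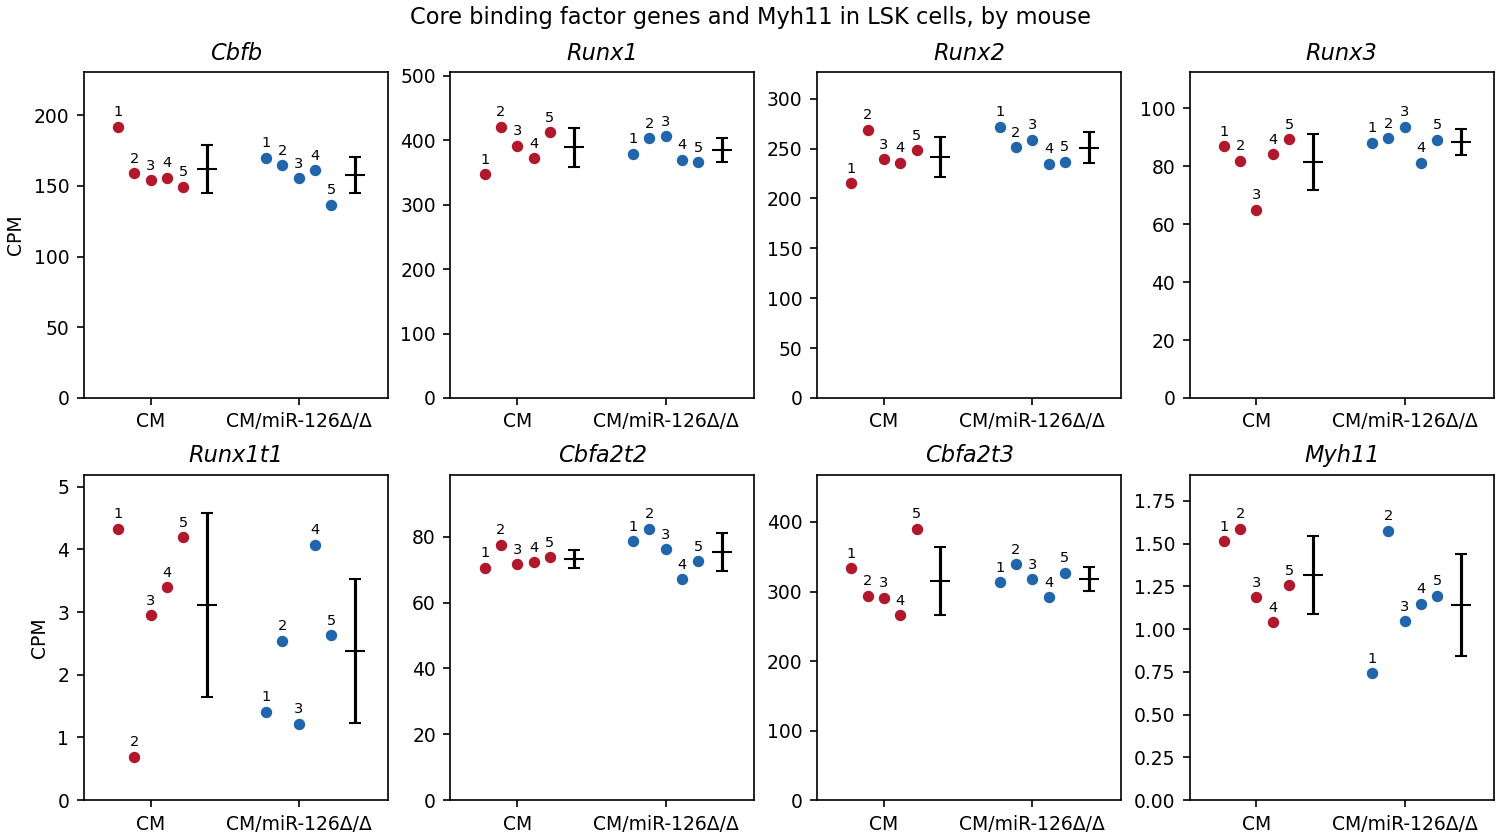
Level of each of the 8 genes in CPM (linear axes starting at 0), 1 point per mouse, with the mean and SD of the 5 CM and the 5 CM/miR-126Δ/Δ mice. The genotypes overlap in every panel, and Runx1t1 has the widest spread, from 0.694 to 4.33 CPM.

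The precision differed among the genes. For the 6 genes above 60 CPM the 95% interval of the fold change stayed between 0.867 and 1.22, whereas it was 0.604 to 1.24 for Myh11 and 0.415 to 1.41 for Runx1t1. For each gene, fold changes within its own interval remain compatible with these data of 5 mice per genotype.

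**Figure D2:**
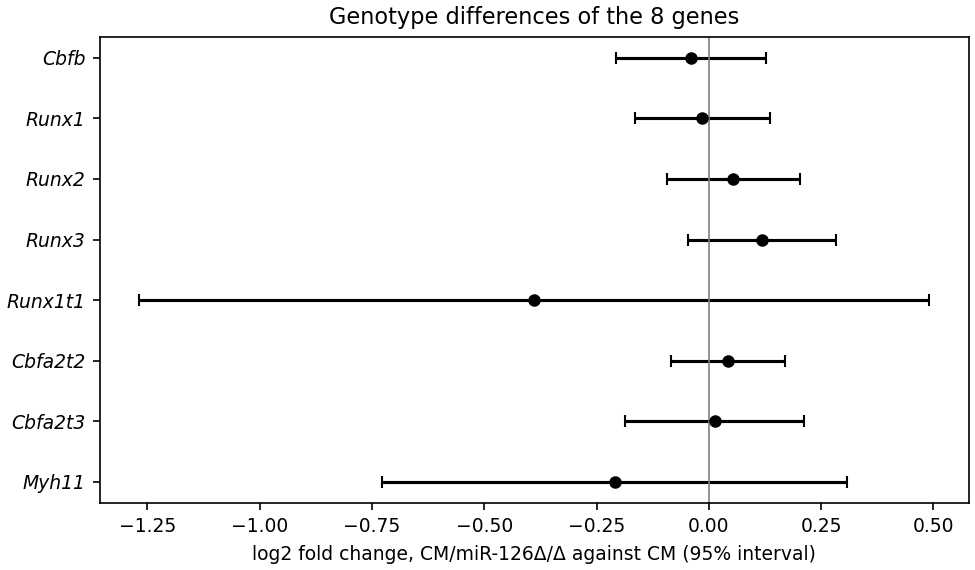
Log2 fold change of each gene, CM/miR-126Δ/Δ against CM, with its 95% interval from the edgeR fit across all genes. Every interval holds 0, and those of Runx1t1 (-1.27 to 0.49) and Myh11 (-0.73 to 0.31) are the widest.

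Per length of exon, measured as RPKM (the CPM divided by exon length in kilobases), the 8 genes fell into a high group of 6 and a low pair. The order of median RPKM over the 10 mice was Cbfb (54.0), Runx1 (52.2), Cbfa2t3 (39.6), Runx2 (28.5), Runx3 (21.2), Cbfa2t2 (12.03), Runx1t1 (0.336) and Myh11 (0.180). Cbfb and Runx1 could not be ordered, as Cbfb was above Runx1 in 5 of 10 mice. From Runx1 down to Runx1t1, each gene stood above the next in 10 of 10 mice, and Runx1t1 was above Myh11 in 8 of 10. The step from Cbfa2t2 to Runx1t1 was 35.8-fold in median RPKM. Without division by length, in CPM, Cbfb came 4th, because its exons sum to 2913 bases and those of Runx1 to 7378. The Cbfb reads include those of the exons that the fusion keeps, so this level per length is not that of the wild-type transcript alone.

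**Figure D3:**
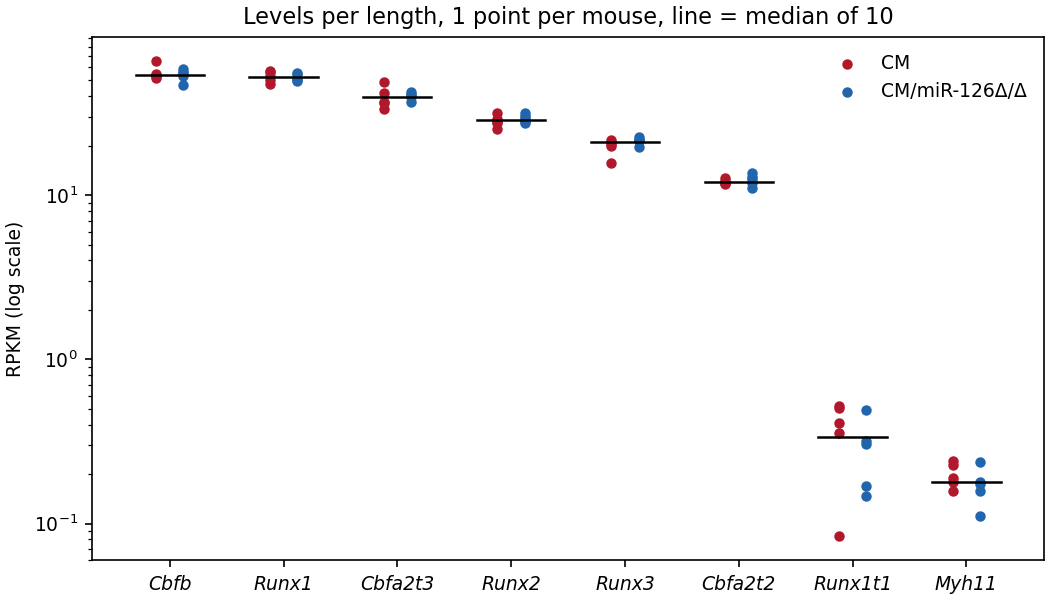
RPKM of the 8 genes on a log axis, ordered by median, 1 point per mouse and a line at the median of the 10 mice. The 6 upper genes run from 12.03 to 54.0 RPKM at the median, and Runx1t1 and Myh11 stay below 1 RPKM in every mouse.

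Cbfb (chromosome 8, 105170674 to 105217988, plus strand, mm10) encodes the beta subunit. CM mice 1 to 5 had 192, 159, 154, 156 and 149 CPM, and CM/miR-126Δ/Δ mice 1 to 5 had 170, 165, 156, 161 and 137 CPM. CM mouse 1 was the highest of all 10 and stood apart from the other CM mice, and CM/miR-126Δ/Δ mouse 5 was the lowest. The means were 162 ± 17.1 and 158 ± 12.8 CPM (SD, n = 5 each), and the log2 fold change was -0.04 (SE 0.0779, edgeR's quasi-likelihood test, adjusted p = 0.922, exact two-sided permutation p = 0.690). Without CM mouse 1 the log2 fold change was 0.04, and without CM/miR-126Δ/Δ mouse 5 it was 0.0074, so its sign rested on these mice. Reads from the wild-type allele and reads from the Cbfb exons that the fusion keeps fall in the same row and cannot be told apart in gene counts, and no mouse without the fusion served as a baseline.

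The 3 RUNX genes encode the DNA-binding subunits. Runx1 (chromosome 16, 92601466 to 92826074, minus strand) is the form required for blood stem cell emergence. It had 348, 421, 391, 372 and 413 CPM in CM mice 1 to 5 and 379, 404, 407, 370 and 366 CPM in CM/miR-126Δ/Δ mice 1 to 5. All the CM/miR-126Δ/Δ values lay within the range of the CM mice. Of the 8 genes it had the smallest ratio of the highest to the lowest mouse, 1.21. Its log2 fold change was -0.01 (SE 0.0701, edgeR's quasi-likelihood test, adjusted p = 0.977, exact permutation p = 0.817).

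Runx2 (chromosome 17, 44495987 to 44814797, minus strand), the master regulator of bone-forming cells, was also abundant in these LSK cells. CM mice 1 to 5 had 215, 269, 239, 236 and 248.6 CPM, and CM/miR-126Δ/Δ mice 1 to 5 had 272, 251.6, 259, 235 and 237 CPM. The lowest value was that of CM mouse 1 and the highest that of CM/miR-126Δ/Δ mouse 1, with the other mice of both genotypes intermixed between them. The log2 fold change was 0.05 (SE 0.0692, edgeR's quasi-likelihood test, adjusted p = 0.863, exact permutation p = 0.413). Runx2 was the only one of the 8 genes to overlap another gene of the table. It shares 37632 bases of its span with Supt3, a subunit gene of the SAGA complex on the opposite strand, and the strand setting of the counting was not given in the sources used here. Supt3 stood at 21.6 ± 2.53 CPM in CM against 20.6 ± 0.643 CPM in CM/miR-126Δ/Δ mice (SD, n = 5 each), with a log2 fold change of -0.07.

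Runx3 (chromosome 4, 135120645 to 135177990, plus strand) is best known from T cell development. CM mice 1 to 5 had 86.9, 81.9, 65.0, 84.1 and 89.3 CPM, and CM/miR-126Δ/Δ mice 1 to 5 had 88.1, 89.7, 93.7, 81.3 and 89.2 CPM. CM mouse 3 was the lowest, and the other 9 mice lay between 81.3 and 93.7 CPM. Its log2 fold change of 0.12 (SE 0.0769, edgeR's quasi-likelihood test, adjusted p = 0.765, exact permutation p = 0.175) was 0.06 without CM mouse 3.

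The ETO-family genes encode corepressors that RUNX1 fusions and blood transcription factor complexes recruit. Cbfa2t3 (chromosome 8, 122625136 to 122699109, minus strand) was the most abundant of them. CM mice 1 to 5 had 333, 294, 291, 266 and 390 CPM, and CM/miR-126Δ/Δ mice 1 to 5 had 314, 339, 318, 292 and 327 CPM. Both the lowest and the highest value were from CM mice, with all CM/miR-126Δ/Δ mice between them. The log2 fold change was 0.01 (SE 0.0930, edgeR's quasi-likelihood test, adjusted p = 0.977, exact permutation p = 0.913).

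Cbfa2t2 (chromosome 2, 154436484 to 154539356, plus strand) had 70.6, 77.5, 71.6, 72.2 and 73.8 CPM in CM mice 1 to 5. CM/miR-126Δ/Δ mice 1 to 5 had 78.5, 82.4, 76.2, 67.1 and 72.5 CPM. The CM/miR-126Δ/Δ mice held both the highest and the lowest value. The log2 fold change was 0.04 (SE 0.0590, edgeR's quasi-likelihood test, adjusted p = 0.876, exact permutation p = 0.468).

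Runx1t1 (chromosome 4, 13743302 to 13895055, plus strand), the gene of the ETO protein itself, was low and uneven. Its counts were 143, 21, 72, 101 and 127 in CM mice 1 to 5 and 38, 63, 28, 103 and 64 in CM/miR-126Δ/Δ mice 1 to 5. In CPM these were 4.33, 0.694, 2.95, 3.39 and 4.19 in CM and 1.41, 2.54, 1.22, 4.08 and 2.63 in CM/miR-126Δ/Δ mice. CM mouse 2 was the lowest and CM mouse 1 the highest, 6.24-fold apart, and their 95% exact Poisson intervals of 13 to 32.1 and 121 to 168 counts, which cover counting error only, did not meet. The spread within genotypes was 48.0% of the mean, against 11.5% from counting alone. It was thus larger than counting gives and larger than the 28.3% that the edgeR trend gave as the biological coefficient of variation of genes at this level, where Runx1t1 itself had 46.3%. The log2 fold change of -0.39 (SE 0.410, edgeR's quasi-likelihood test, adjusted p = 0.816, exact permutation p = 0.397) ranged from -0.66 to -0.23 when 1 mouse was left out.

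Myh11 (chromosome 16, 14194527 to 14291408, minus strand) encodes the smooth muscle myosin heavy chain and was the lowest of the 8 genes in median RPKM, with few counts in each library. Counts were 50, 48, 29, 31 and 38 in CM mice 1 to 5 and 20, 39, 24, 29 and 29 in CM/miR-126Δ/Δ mice 1 to 5. In CPM these were 1.51, 1.59, 1.19, 1.04 and 1.25 in CM and 0.742, 1.57, 1.04, 1.15 and 1.19 in CM/miR-126Δ/Δ mice. CM/miR-126Δ/Δ mouse 1 was the lowest, and the other mice of both genotypes shared 1 range. The spread within genotypes was 21.7% of the mean, where counting alone gives 17.2%. The biological coefficient of variation that edgeR gave Myh11 was 22.9%, and its trend for genes at this level gave 33.8%. The log2 fold change was -0.21 (SE 0.242, edgeR's quasi-likelihood test, adjusted p = 0.845, exact permutation p = 0.325), and it was -0.08 without CM/miR-126Δ/Δ mouse 1 and -0.35 without CM/miR-126Δ/Δ mouse 2. The study writes the myosin part of the fusion as the human gene, and whether its reads can align to the mouse Myh11 row was not tested, so the row is not a measure of the fusion transcript.

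Relative levels of the subunit genes were compared within each mouse. The Cbfb row holds reads of the wild-type allele and of the exons that the fusion keeps, divided here by the full exon length. Ratios with Cbfb are therefore not measures of the beta subunit's own transcript. Cbfb divided by the sum of Runx1, Runx2 and Runx3, all in RPKM, was 0.707, 0.503, 0.546, 0.544 and 0.481 in CM mice 1 to 5 and 0.559, 0.534, 0.494, 0.569 and 0.475 in CM/miR-126Δ/Δ mice 1 to 5. CM mouse 1 stood apart, with the highest Cbfb and the lowest Runx1 and Runx2 of all 10 mice, and the other 9 mice were intermixed. The medians were 0.544 and 0.534. Runx1 made up 50.5% to 54.8% of the RUNX sum in CM and 49.2% to 51.7% in CM/miR-126Δ/Δ mice. Runx2 made up 26.9% to 29.0% and 27.8% to 30.4%, and Runx3 16.3% to 22.5% and 20.2% to 21.8%. Within the ETO family, Cbfa2t3 made up 73.1% to 79.5% in CM and 75.0% to 77.0% in CM/miR-126Δ/Δ mice, and Runx1t1 at most 1.02% in any mouse. Myh11 came to 0.294% to 0.438% of Cbfb in CM and 0.192% to 0.420% in CM/miR-126Δ/Δ mice. Each of these ranges overlapped between the genotypes.

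**Figure D4:**
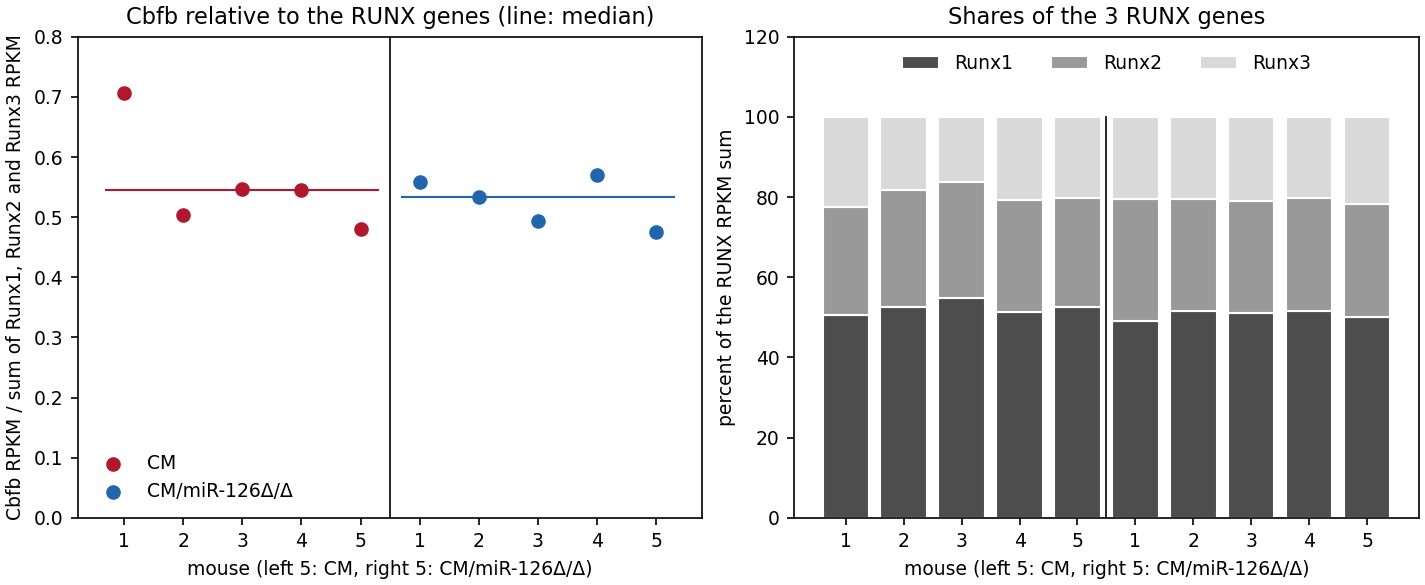
Left, Cbfb RPKM divided by the summed RPKM of Runx1, Runx2 and Runx3 in each mouse, with a line at the median of each genotype (0.544 in CM, 0.534 in CM/miR-126Δ/Δ). The Cbfb value includes reads from the exons that the fusion keeps. Right, the percent of the RUNX sum held by each RUNX gene in each mouse, with Runx1 at about the same share in all 10 (49.2% to 54.8%).

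Genes whose level followed that of Cbfb most closely from mouse to mouse, after each genotype's mean was subtracted, were Lysmd2 (Pearson r = 0.962), Desi2 (r = 0.961) and Zfp24 (r = 0.960) among 11592 genes over 10 libraries. Without CM mouse 1 and CM/miR-126Δ/Δ mouse 5, which were farthest from the median of Cbfb, r was 0.919, 0.900 and 0.863. For Runx1 they were Zcchc24 (r = 0.903), Pik3cg (r = 0.901) and Tcf4 (r = 0.901), with 0.768, 0.849 and 0.789 without CM mice 1 and 2. For Myh11 they were Fxr1 (r = 0.898), Acad10 (r = 0.891) and Gm11694 (r = 0.886) among 13396 genes, with 0.722, 0.725 and 0.712 without CM/miR-126Δ/Δ mice 1 and 2. All points share their libraries and scaling, and these genes were picked as the highest of many, so the values describe likeness in these 10 libraries.

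Other genes of the pathway were read from lists. Of 20 partner proteins of RUNX, 0 were called at an adjusted p below 0.05 by edgeR, with 1 higher and 2 lower at an unadjusted p below 0.05 (6.61% of all genes). The median log2 fold change was 0.04. The 3 genes were Hipk2, a kinase that phosphorylates Runx1, Stub1, a ubiquitin ligase that acts on it, and Prmt1, an arginine methyltransferase of Runx1. Hipk2 had 88.5 ± 7.61 CPM in CM against 102 ± 14.6 CPM in CM/miR-126Δ/Δ mice. Stub1 had 51.1 ± 4.44 and 43.7 ± 5.44 CPM, and Prmt1 had 137 ± 12.6 and 118 ± 8.09 CPM (SD, n = 5 each), with adjusted p of 0.750, 0.746 and 0.661 by edgeR.

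Of 20 corepressor and complex partners of the ETO family, 0 were called by edgeR and 1 had an unadjusted p below 0.05, with 9 of 20 higher in CM/miR-126Δ/Δ mice and a median of -0.01. That gene was Ldb1, the bridge of the Tal1 and Gata complexes in which Cbfa2t3 sits, with 209.5 ± 5.73 CPM in CM against 192 ± 12.4 CPM in CM/miR-126Δ/Δ mice (edgeR adjusted p = 0.748). The next by p were Gps2, a subunit of the NCoR complex, at 25.6 ± 2.63 and 22.2 ± 2.47 CPM, and the repressor Bcl6 at 12.8 ± 2.51 and 15.8 ± 2.71 CPM.

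Of 30 genes that RUNX proteins are known to regulate in blood cells, 29 were tested and 0 were called by edgeR, with 9 of 29 higher in CM/miR-126Δ/Δ mice and a median of -0.05. In this fit, without a replicate block, the single gene with an unadjusted p below 0.05 was Ly6d, a marker of B cell commitment, at 2.14 ± 0.740 CPM in CM against 1.38 ± 0.346 CPM in CM/miR-126Δ/Δ mice (SD, n = 5 each; edgeR adjusted p = 0.746). Cdkn1a, the gene of the cell cycle inhibitor p21, had 18.2 ± 10.3 and 11.6 ± 5.06 CPM, and Itga2b, the integrin CD41, had 173 ± 26.0 and 144 ± 27.8 CPM, both with an edgeR adjusted p of 0.764. With the replicate number as a block, 7 of the 29 had an unadjusted p below 0.05, all lower in CM/miR-126Δ/Δ mice, where 8.89% of all genes passed, and 0 of the 29 were called.

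Among 13 other myosin heavy chain genes, 10 were detected and 0 were called by edgeR, with 1 lower at an unadjusted p below 0.05. That gene was Myh4, a skeletal muscle myosin with at most 4 counts in a library. The median of the 10 was 0.12 on the log2 scale, and 0.03 for the 3 with a mean of at least 10 counts. The non-muscle form Myh9 was the main myosin heavy chain of these cells, with a median of 164 RPKM, where Myh11 had 0.180 RPKM. Myh9 had 1178 ± 109 CPM in CM against 1201 ± 155 CPM in CM/miR-126Δ/Δ mice. Myh10, also a non-muscle form, had a median of 1.39 RPKM. The median of Myh14, 0.127 RPKM, was below that of Myh11.

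Of 15 genes listed for smooth muscle, the tissue in which Myh11 is normally made, 9 had a mean below 10 counts and 6 a mean of 10 or more. Among the 9, Lmod1, Des and Myocd had 0 counts in every library, Cnn1 at most 2, Myl9 at most 1, Actg2 at most 4, Acta2 at most 5, Cald1 at most 7 and Tagln at most 25, where Myh11 had 20 to 50. The summed level of the list, 122 to 134 CPM in CM and 123 to 157 CPM in CM/miR-126Δ/Δ mice, came mainly from Pcp4l1 (74.6 and 77.9 CPM), Smtn (23.6 and 26.3 CPM) and Mylk (22.2 and 23.8 CPM). Of the 12 tested, 0 were called by edgeR, with 8 higher in CM/miR-126Δ/Δ mice and a median log2 value of 0.09. Synpo2, an actin-binding protein, had an unadjusted p below 0.05, at 4.43 ± 1.01 CPM in CM against 6.52 ± 1.14 CPM in CM/miR-126Δ/Δ mice (edgeR adjusted p = 0.661).

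Genes listed for stroma and endothelium, cells that the sort should remove, summed to 117 to 163 CPM in CM and 118 to 157 CPM in CM/miR-126Δ/Δ mice. The sum was mostly Pdgfrb (116 and 114 CPM) and Emcn (14.7 and 13.7 CPM). Of the 15 genes, 9 had a mean below 10 counts, and whether the sum came from such cells was not tested. Of 15 tested, 0 were called by edgeR, and the 1 with an unadjusted p below 0.05 was Sp7, higher in CM/miR-126Δ/Δ mice at no more than 2 counts. In CM/miR-126Δ/Δ mice 7 of the 15 were higher, and the median over the 15 was -0.03 on the log2 scale, and -0.23 for the 6 with a mean of at least 10 counts. The endothelial receptor Kdr had 1.97 and 1.38 CPM, the chemokine Cxcl12 had 3.70 and 2.78 CPM and the endothelial cadherin Cdh5 had 0.850 and 0.660 CPM.

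Of 12 LSK markers 0 were called by edgeR, and 3 were higher in CM/miR-126Δ/Δ mice at an unadjusted p below 0.05. They were the stem cell transcription factor genes Hlf (581 ± 54.9 and 718 ± 89.7 CPM), Meis1 (327 ± 25.2 and 372 ± 29.4 CPM) and Mecom (106 ± 16.5 and 125 ± 15.2 CPM), with adjusted p of 0.661, 0.746 and 0.748, and the median over the 12 was 0.02 on the log2 scale. Of the 12 markers of mature lineages tested, 0 were called by edgeR and 1 was lower at an unadjusted p below 0.05, the myeloid integrin Itgam (88.1 ± 26.5 CPM in CM against 69.1 ± 5.13 CPM in CM/miR-126Δ/Δ mice, SD, n = 5 each). Their median was -0.12, with 3 of 12 higher in CM/miR-126Δ/Δ mice. The neutrophil gene S100a8 had 8.76 and 16.5 CPM, with 72.2 CPM in its highest mouse, and the B cell gene Ms4a1 had 0.413 and 0.755 CPM.

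**Figure D5:**
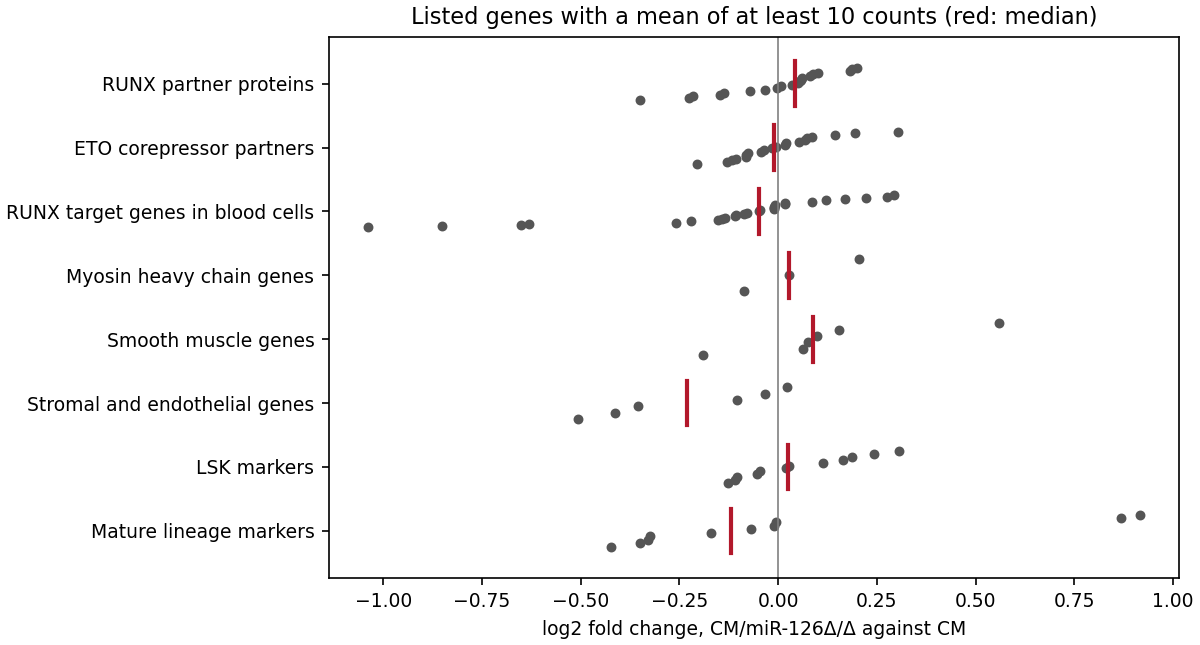
Log2 fold changes (CM/miR-126Δ/Δ against CM) of listed genes with a mean of at least 10 counts, 1 point per gene and a line at each list's median. Each list spreads to both sides of 0, and no gene in any of the lists passed an adjusted p of 0.05.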

How the data were processed

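RNA-seq libraries (KAPA RNA HyperPrep with RiboErase, a stranded kit) of LSK cells were made from 5 CM and 5 CM/miR-126Δ/Δ mice. Per the labels, the authors aligned reads to mm10 with TopHat2 and counted reads per RefSeq gene with HTSeq 0.6.1p1, and they deposited raw counts. A second deposited table, named RPKM, holds a normalized signal: the counts divided by 1 constant per library and not by length. RPKM was therefore computed here from the counts, exon lengths and TMM library sizes. Every gene counted at least once somewhere was tested with edgeR 4.0.16 (quasi-likelihood F-test, TMM factors, genotype as the only term). The Benjamini-Hochberg adjustment covered 18747 genes. The same fit was also run on simulated counts, whose results are not given here. DESeq2 1.42.0, other scalings and filters, a replicate block and leaving out each mouse were tried as alternatives. Exact permutation tests used the CPM of the 10 mice, with the mouse as the unit. Each such p is the share of the 252 splits of 5 against 5 mice whose mean difference was at least as large. These splits did not use the replicate number. The 8 genes and the gene lists were chosen with earlier results of these data known. From each list, genes called were named, otherwise the 3 lowest p with a mean of at least 10 counts, and in marker lists also the most abundant (1 such marker is not reported here); Myh4, Sp7 and the smooth muscle genes given by counts alone were named after their values were seen. Promoters and the miRNA came from RefSeq (GRCm38.p6), and 3′ UTR sequences from transcripts of an older annotation, matched by symbol.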

Additional observations from a re-analysis of the deposited data

Results flagged for a closer look

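In groups of 5 mice, a value was singled out when its gap to the nearest mouse exceeded 0.71 of the group's range. Of 32 groups checked (levels and ratios of the 8 genes), 3 held such a value, where chance gives about 1 in 20 groups, or 1.6. Cbfb in CM mouse 1 stood at 192 CPM, with the other CM mice at 149 to 159 CPM. Cbfb over the sum of the RUNX genes in the same mouse was 0.707, with the others at 0.481 to 0.546. Runx2 in CM/miR-126Δ/Δ mouse 1 made up 30.4% of the RUNX sum, with the others at 27.8% to 28.2%.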

How the results depend on the processing

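Under 18 alternatives (10 that left out a mouse and 8 others), 0 of the 8 genes had an adjusted p below 0.05, and the lowest was 0.545, over a range of settings that used edgeR and DESeq2. The lowest unadjusted p was 0.049 by edgeR's quasi-likelihood test, for Runx1t1 without CM mouse 2, its lowest mouse. There its log2 fold change was -0.65 and its edgeR adjusted p was 0.786. Of 142 values of single genes, 128 kept their sign and 14 reversed it, all of Cbfb, Runx1 or Cbfa2t3, whose fitted values were near 0. The log2 fold change of Cbfa2t3 was -0.0048 with no scaling beyond the total count, and that of Runx1 was 0.0024 with filterByExpr and 0.0041 among genes with a mean of at least 1 RPKM, where Runx1t1 and Myh11 had no value. With 1 mouse left out, Cbfb ranged from -0.056 to 0.041, Runx1 from -0.041 to 0.021 and Cbfa2t3 from -0.029 to 0.12. Runx2 ranged from 0.027 (without CM mouse 1) to 0.096 (without CM mouse 2), Cbfa2t2 from 0.0085 (without CM/miR-126Δ/Δ mouse 2) to 0.096 (without CM/miR-126Δ/Δ mouse 4) and Myh11 from -0.35 to -0.08. Cbfb came 4th rather than 1st in CPM. The median of Cbfb over the RUNX sum was 0.539 over all 10 mice and 0.221 from the deposited normalized values, which are not divided by length.

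Over all genes, the 2 calls became 1 with no scaling, 45 with DESeq2, 4 with filterByExpr and 4 with the RPKM minimum. They ranged from 1 to 7 with a mouse left out, 7 without CM/miR-126Δ/Δ mouse 3 and 1 without each of CM mice 3, 4 and 5 and CM/miR-126Δ/Δ mice 1, 2, 4 and 5. By cutoffs of p at most 0.01, fold at least 1.5 and RPKM at least 1, 54 genes passed, and 33 to 128 with a mouse left out, the lowest without CM/miR-126Δ/Δ mouse 5 and the highest without CM mouse 3. The causes were not tested. With the replicate number as a block, calls over all genes rose to 20 and those by the cutoffs to 115, while 0 of the 8 genes and 0 of the listed genes were called (edgeR adjusted p of 0.715 to 0.973 for the 8). Deviations of same-numbered mice correlated at 0.219, 0.205, 0.452, 0.368 and 0.0845 for numbers 1 to 5, over 13396 genes. Of the 5 CM mice, 3 correlated best with their own number. CM mice 2 and 5 reached 0.399 and 0.477 with a CM/miR-126Δ/Δ mouse of another number. The identifiers of the libraries of same-numbered mice also follow each other directly. A shared number is thus a hint from the data and the identifiers, and no label calls the mice paired. At an unadjusted p below 0.05, the block moved the RUNX target genes from 1 of 29 to 7, all lower in CM/miR-126Δ/Δ mice (Csf1r, Itga2b, Igll1, Rag1, Cebpa, Ly6d and Cdkn1a, named after their values were seen), and the ETO partners from 1 of 20 to 5, 2 higher and 3 lower, where the share of all genes moved from 6.61% to 8.89%. Counting alone gives Myh11 a spread of 17.2% of its mean, beside the 21.7% seen within genotypes and the biological coefficient of variation of 22.9% that edgeR gave it.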
